A study of Mus musculus with 8 samples.

Results

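Carm1, also called Prmt4, encodes the coactivator-associated arginine methyltransferase, an enzyme known to methylate arginine 17 of histone H3 and to act with transcription factors. A cytosine base editor joins a Cas9 protein that makes no double-strand break to a deaminase; the deaminase turns cytosine into uracil on the DNA strand that the guide leaves unpaired, and uracil is read as thymine. In a coding sequence such a change can create a stop codon, which ends translation early and so can disable a gene without cutting it. Bases next to the intended one can be converted too, and the repair of uracil can leave adenine or guanine at the cytosine instead of thymine. These bystander and by-product changes are followed below base by base at 1 site.

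The site is the 20-base Carm1 target of the series, taken as all 160 lines of the deposited table that carry its name: 20 of the 520 positions measured, each in all 8 libraries. The other 25 sites are 9 H3 target sites and 16 sites that resemble the H3 or the Carm1 target. Genomic DNA came from C57BL/6 embryos collected 19.5 days after microinjection. The labels put 4 libraries in a wild-type group (H3R17/Carm1 wild type) and 4 in a group with the genotype H3R17H/Carm1-/-, called edited here. The labels do not say what the wild-type embryos received, which editor was used, whether embryos were pooled, or that each replicate came from an embryo of its own. The p-values below are thus about the spread among these 8 libraries, which may be technical.

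The gene lies on chromosome 9 from 21546894 to 21589467 in GRCm38.p6 (RefSeq gene table). The position of the site within the gene, its exon and its reading frame were not determined here. The sequences below show the site as the table lists it and after conversion of both target cytosines, on both strands, with the target bases in capitals. Position 1 is the leftmost base of the listed strand.
Carm1 site: aggtaCCagccatccttcca
Carm1 site converted: aggtaTTagccatccttcca
opposite strand: tggaaggatggctGGtacct
opposite strand converted: tggaaggatggctAAtacct

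The site holds 8 cytosines, at positions 6, 7, 10, 11, 14, 15, 18 and 19, and 3 guanines, at positions 2, 3 and 9. Read on the opposite strand, positions 8 to 6 spell TGG. Conversion of position 6 alone gives TGA, of position 7 alone TAG, and of both TAA, so each combination of these conversions makes a stop triplet in that frame. Adenine or guanine at position 6 or 7 made no stop triplet in that frame, whichever base stood at the other position. On the listed strand only position 7 matters, since it turns CAG at positions 7 to 9 into TAG.

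The first question was how completely the target cytosines had been converted and what was left. In edited replicates 1 to 4, 99.9%, 99.8%, 99.5% and 99.95% of reads showed C6T, and 99.9%, 99.8%, 99.5% and 99.97% showed C7T. The edited libraries therefore sat close together, with replicate 3 lowest at both bases. Mean C6T was 99.8% ± 0.193 (SD, n = 4) in the edited group and 0.0245% ± 0.0183 (n = 4) in the wild-type group, and mean C7T was 99.8% ± 0.194 against 0.0307% ± 0.0203. Both differences were larger than the replicate spread (permutation test, exact and two-sided, p = 0.0286 each, which is the lowest value that this design allows; Benjamini-Hochberg adjusted p = 0.0381 over the 8 values tested for the site). The 2 positions differed from each other by 0.0160 percentage points or less in each library. If the reads with a call at both positions had these shares, at least 99.03% of them carried both conversions in edited replicate 3 and at least 99.92% in replicate 4. The table gives each position separately, so the combinations on single reads were not measured.

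Reads that kept cytosine were few and differed between edited libraries. Unchanged cytosine at position 6 had shares of 0.114%, 0.157%, 0.480% and 0.0245% in edited replicates 1 to 4. Position 7 gave nearly the same shares, 0.118%, 0.179%, 0.479% and 0.0286%. Replicate 3 thus kept the most cytosine at both bases and replicate 4 the least. The Wilson 95% intervals for position 6 were 0.452 to 0.509% in replicate 3 and 0.0197 to 0.0305% in replicate 4, so the gap was far wider than counting error. The PCR products carried no molecular identifiers that the sources used here mention, so several reads can stem from 1 molecule, and all intervals cover counting error only.

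**Figure D1:**
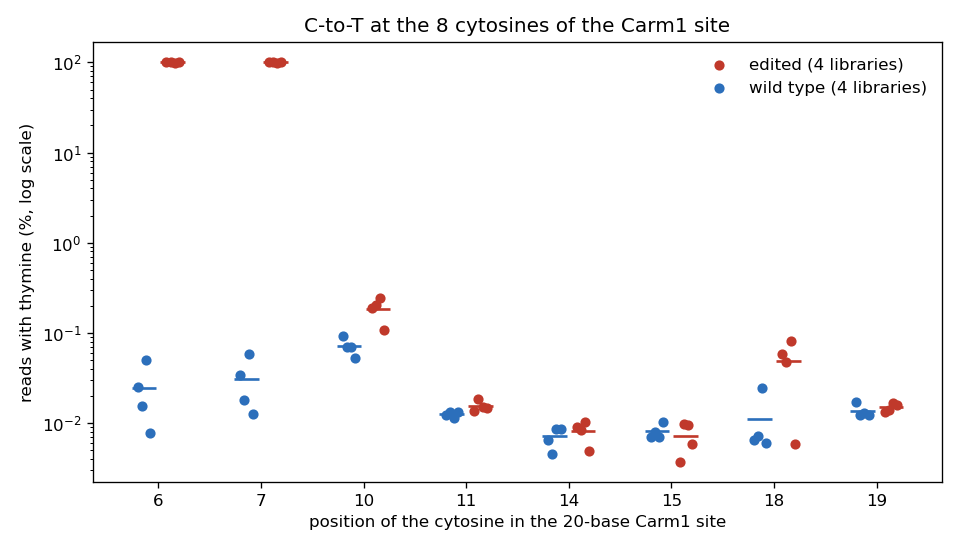
Percent of reads with thymine (log scale) at each of the 8 cytosines of the Carm1 site, by position, in 4 wild-type (blue) and 4 edited (red) libraries, replicates 1 to 4 from left to right; bars are group means. Positions 6 and 7 stand above 99% in each edited library, position 10 is higher in each edited than in each wild-type library, and at position 18 edited replicate 4 lies with the wild-type libraries.

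Wild-type libraries also held a few reads with thymine at the target bases. C6T was 0.0252%, 0.0153%, 0.0497% and 0.00767% in wild-type replicates 1 to 4, and C7T was 0.0341%, 0.0182%, 0.0578% and 0.0126%. The libraries kept the same order at both bases, with replicate 3 highest and replicate 4 lowest. At the 8 Carm1-like sites, which all have cytosine at positions 6 and 7, C6T in single wild-type libraries ran from 0.00512 to 0.0137%, and C7T from 0.00459 to 0.0228%. Wild-type replicates 1, 2 and 3 were above that range at position 6, and replicates 1 and 3 at position 7. Where these reads came from was not tested.

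Adenine and guanine at the target cytosines, the other products that repair of uracil can leave, stayed at trace levels. Averaged over both positions their share was 0.0136%, 0.00950%, 0.00643% and 0.0138% in edited replicates 1 to 4, and 0.0136%, 0.0179%, 0.0156% and 0.0144% in wild-type replicates 1 to 4. The groups overlapped, and the difference of -0.00456 percentage points missed the threshold (exact permutation p and adjusted p both 0.0571; without edited replicate 4, -0.00556 points and exact p = 0.0286). This mean joins positions that moved in opposite directions. C6A averaged 0.0101% in edited and 0.00505% in wild-type libraries, and C7A 0.00505% and 0.0223%. The starting bases also differ, since nearly all cytosine at both positions had become thymine in edited libraries. At position 5 of the 9 H3 target sites in the same edited libraries, adenine plus guanine averaged 0.267%, 3.65%, 3.40% and 0.0242%. The Carm1 share was lower in 4 of 4 edited libraries, with a mean difference of -1.83 percentage points (exact sign-flip p = 0.125, the smallest that 4 libraries can give, in a comparison chosen after seeing the data). This comparison left out the wild-type libraries, and the Carm1 value joins both target positions where the H3 value takes a single position. The H3 sites share sequence, and the sources used here do not say how reads were shared out among them.

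The composition of the reads without thymine differed from library to library. At position 6, cytosine made up 89.3%, 90.8% and 98.1% of reads without thymine in edited replicates 1, 2 and 3. In edited replicate 4, adenine made up 48.1% of them, or 75 of 156 reads (Wilson 95% interval 40.4 to 55.9%), and cytosine 50.6%. C6A was 0.0233% of all reads there, against 0.00341 to 0.00839% in the other edited and 0.00371 to 0.00715% in the wild-type libraries. C6G was 0.0102% and 0.0105% in edited replicates 1 and 2, or 30 reads each, and 0.000883% and 0.000620% in replicates 3 and 4, or 2 reads each. Neither C6A nor C6G passed between groups (limma adjusted p = 0.894 and 0.924).

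C7A went the other way. It was 0.0118%, 0.00214%, 0.00314% and 0.00315% in edited replicates 1 to 4, and 0.0187%, 0.0277%, 0.0217% and 0.0208% in wild-type replicates 1 to 4. Each edited library was below each wild-type library, but the limma test over all base changes did not call it (log2 odds difference -2.40, SE 0.49, adjusted p = 0.104). Without edited replicate 1 it was called (adjusted p = 0.000755). Nearly all cytosine at this base had become thymine in edited libraries, so a share of all reads compares different starting bases. C7G was 0.000969% against 0.00188% (adjusted p = 0.756).

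The second question was whether cytosines outside the target pair had been converted. Over positions 10, 11, 14, 15, 18 and 19, mean C-to-T was 0.0479%, 0.05004%, 0.0624% and 0.0259% in edited replicates 1 to 4 and 0.0236%, 0.0192%, 0.0224% and 0.0172% in wild-type replicates 1 to 4. The groups did not overlap, and the difference was 0.0260 percentage points (exact permutation p = 0.0286, adjusted p = 0.0381). It rested on positions 10 and 18. Over the other 4 cytosines, a setting chosen after seeing the data, the means were 0.0114% ± 0.00155 and 0.0104% ± 0.000716 (n = 4 each, exact permutation p = 0.314). Without any single one of the wild-type libraries the value also missed the threshold (exact p = 0.0571), as it did on the log2 odds scale (exact p = 0.114). With a wild-type library left out the difference was 0.0248 to 0.0270 points, tested over 35 splits.

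C10T had the highest edited mean outside the target bases. It was 0.189%, 0.202%, 0.242% and 0.108% in edited replicates 1 to 4, and 0.0920%, 0.0699%, 0.0698% and 0.0524% in wild-type replicates 1 to 4. Edited replicate 4, the library with the most complete target conversion, had the lowest edited value, but it was still above each wild-type library. Mean C10T was 2.61 times the wild-type mean. In the limma fit over the 210 cytosines of all sites it was called (log2 odds difference 1.35, SE 0.29, adjusted p = 0.0204), as were C6T and C7T: 3 of the site's 8 cytosines were called higher and 0 lower, against 9.52% of all cytosines higher and 0.476% lower. The C10T call was lost without edited replicate 1, 2 or 3 and without wild-type replicate 2, 3 or 4 (adjusted p of 0.0562 to 0.0684), and it was lost in a quasi-binomial model (adjusted p = 0.0809). It was not made in the fit over all base changes (adjusted p = 0.117), except without edited replicate 4 (adjusted p = 0.0242).

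C18T split the edited libraries. It was 0.0588%, 0.0481% and 0.0807% in edited replicates 1, 2 and 3, but 0.00581% in edited replicate 4. Wild-type replicates 1, 2 and 4 gave 0.00654%, 0.00725% and 0.00607%, and wild-type replicate 3 gave 0.0245%. The groups overlapped, because edited replicate 4 lay at the level of wild-type replicates 1, 2 and 4, and C18T was not called over the cytosines (adjusted p = 0.444). Without edited replicate 4 it was called (log2 odds difference 2.72, adjusted p = 0.0225).

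None of the remaining 4 cytosines was called. C11T was 0.0135 to 0.0184% in edited and 0.0113 to 0.0134% in wild-type libraries; the ranges did not overlap, and limma gave an adjusted p of 0.407. C14T, C15T and C19T averaged 0.00816%, 0.00718% and 0.0149% in edited and 0.00710%, 0.00810% and 0.0137% in wild-type libraries, with overlapping groups and adjusted p of 0.814, 0.794 and 0.767. Each of these means is below the 0.0710% of wild-type C10T.

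The third question concerned the guanines, where a cytosine editor acting on the other strand would leave adenine, and the remaining bases. Guanine at position 9, the base after the target pair and one adenine, carried less adenine in edited libraries. G9A was 0.0208%, 0.0282%, 0.0270% and 0.0303% in edited replicates 1 to 4, and 0.127%, 0.116%, 0.103% and 0.0708% in wild-type replicates 1 to 4. The highest edited value was below the lowest wild-type value, and the wild-type mean was 3.92 times the edited mean. G9A fell by 1.94 on the log2 odds scale (SE 0.22; limma adjusted p = 0.00570 over 1560 base changes). With the replicate number as a block the call was lost (adjusted p = 0.137). The numbers were not taken as pairs here, but the labels do not state whether same-numbered libraries were paired. G2A and G3A were 0.00548% and 0.00737% in edited and 0.00518% and 0.00830% in wild-type libraries, with adjusted p of 0.966 and 0.926. The mean over the 3 guanines was 0.0131% ± 0.00243 in the edited group and 0.0392% ± 0.00831 in the wild-type group (n = 4 each; exact permutation p of 0.0286, adjusted p = 0.0381). This call ended without edited replicate 1 or 2 (differences of -0.0250 and -0.0260 points, exact p = 0.0571 each). Changes of guanine to cytosine or thymine were 0.00131 to 0.00712% as edited means, and none of the 6 was called.

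Over all 60 base changes of the site, limma called C6T and C7T higher and G9A lower. Among all 1560 changes of the series, 0.769% were called higher and 0.128% lower. Without edited replicate 1, limma also called A8G and C7A, and without edited replicate 4, C10T and T4G, giving 5 in each case; without edited replicate 2 it also called T13G. The groups did not overlap at 12 of the 60 changes, 6 higher and 6 lower in edited libraries, where the series as a whole had 3.78% higher and 1.41% lower. Besides those already given, A1T and A8G were higher, and A5C, A5G, A5T and T13G lower. Of the 12, 8 lay at positions 5 to 9, which hold 15 of the changes; this window was chosen after the values were seen.

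**Figure D2:**
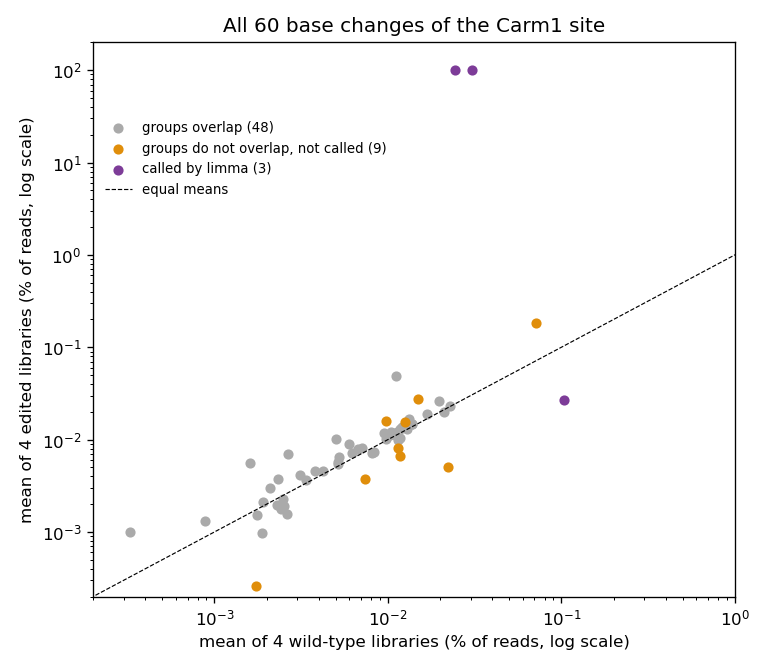
Mean percent of reads for each of the 60 base changes of the Carm1 site in 4 wild-type libraries (horizontal, log scale) and 4 edited libraries (vertical, log scale); purple points were called by limma, orange ones have groups that do not overlap, grey ones overlap, and the dashed line marks equal means. The 2 target conversions stand far above the line, the called point below it is G9A, and 48 grey points lie mostly near it.

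A8G, at the adenine between the target pair and the guanine, was 0.0207%, 0.0304%, 0.0246% and 0.0346% in edited replicates 1 to 4. Wild-type libraries were closer together, at 0.0144 to 0.0153%. The log2 odds difference was 0.86 (SE 0.18, limma adjusted p = 0.116), so A8G was not called, except without edited replicate 1 (adjusted p = 0.0466). At the adenine before the target pair, A5G averaged 0.00669% in edited and 0.0117% in wild-type libraries and A5T 0.00805% and 0.0114%, with adjusted p of 0.241 and 0.681. A1T averaged 0.0161% against 0.00979% (adjusted p = 0.243). Summed over the 3 changes at each of the 18 positions outside the target pair, the mean share of other bases was 0.0403% ± 0.00372 in the edited group and 0.0338% ± 0.00268 in the wild-type group (n = 4 each). The groups overlapped (exact permutation p and adjusted p both 0.0571). Without edited replicate 4, and on the log2 odds scale, its exact p was 0.0286.

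Depth along the site means the reads that have a base called at a position. Median depth was 228715 to 324774 reads in edited and 343480.5 to 410641.5 reads in wild-type libraries. Relative to the mean of the 18 positions other than 6 and 7, wild-type libraries lacked calls at position 7: the ratio was 0.927, 0.927, 0.928 and 0.928 in replicates 1 to 4. Edited libraries stood at 0.980, 0.981, 0.977 and 0.982. Position 8 was also lower in wild type, at 0.955 to 0.961 against 0.998 to 0.9999 in edited libraries. Position 6 was 0.995 on average in edited and 0.991 in wild-type libraries. For positions 6 and 7 together, edited libraries exceeded wild type by 0.0283 (exact permutation p = 0.0286, adjusted p = 0.0381). The third largest shift was at position 1, where edited libraries were lower, at 0.978 to 0.984 against 1.0003 to 1.0008 in wild-type libraries. Relative to the other positions, depth at the target pair was thus not lower in edited libraries, although their median read numbers, given above, were lower. Reads without a call at a base do not enter its conversion share.

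**Figure D3:**
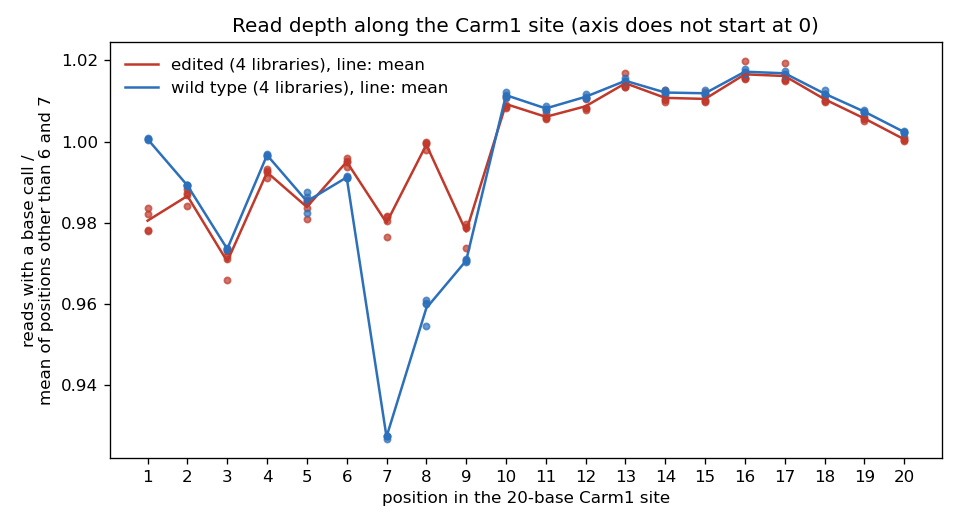
Reads with a base call at each of the 20 positions of the Carm1 site, divided by the mean of the positions other than 6 and 7, in 4 wild-type (blue) and 4 edited (red) libraries; points are libraries, lines are group means, and the axis does not start at 0. The wild-type line dips to 0.927 at position 7 and 0.959 at position 8, where the edited line is at 0.980 and 0.999.

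The Carm1-like sites, which differ from the target by 3 bases each, gave the same positions in the same libraries with thymine at positions 6 and 7 in at most 0.0293% of reads. Of the 8, 5 share positions 5 to 11 with the Carm1 site, shown in capitals because these 7 bases surround the changes compared.
Carm1-like site 1: agaaACCAGCCagccttcca
Carm1-like site 2: gggcACCAGCCttccttcca
Carm1-like site 5: cagtACCAGCCatccatcca
Carm1-like site 6: atgtACCAGCCacccttcta
Carm1-like site 8: aggtACCAGCCatccctcac

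The difference between Carm1 and the mean of the like sites with the same base was taken in each library and compared between groups. These 7 comparisons were chosen after seeing the data, and the adjustment over 7 does not cover that choice. For G9A, the like sites averaged 0.0973% in edited and 0.0936% in wild-type libraries, against 0.0266% and 0.104% at Carm1. The edited minus wild-type change of the Carm1 difference was -0.0813 percentage points (exact permutation p = 0.0286, adjusted p = 0.04 over 7). At the 5 sites that share the 7 bases, G9A in edited libraries averaged 0.0506 to 0.176%, above the 0.0266% of Carm1. Like site 3 was below it at 0.0120%, and there the wild-type mean was 0.0127%.

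The difference in depth between the groups was likewise seen at Carm1 and not in the average of the like sites. At position 7 the like sites averaged 0.970 in edited and 0.971 in wild-type libraries, and single like sites ran from 0.851 to 1.03, so that some had a deeper dip of their own in both groups. At position 8 they averaged 1.0009 in edited and 1.0007 in wild-type libraries. The differences from the like sites rose by 0.0541 at position 7 and 0.0400 at position 8 in edited libraries (exact permutation p = 0.0286 each, adjusted p = 0.04). For A8G the corresponding shift was 0.0104 percentage points and for C7A -0.0173 points (exact permutation p = 0.0286 each, adjusted p = 0.04). Both already had groups that did not overlap at Carm1 alone, and limma over all base changes called neither (adjusted p = 0.116 and 0.104). Leaving out 1 wild-type library raised the A8G and C7A values to an exact p of 0.0571 in 3 of 4 cases each. In edited libraries, A8G averaged 0.0320% at like site 8 and 0.0275% at like site 5, against 0.0276% at Carm1. The remaining like sites with adenine there averaged 0.0119 to 0.0179%. Like sites 8 and 5 also rose, by 0.00792 and 0.00375 points, with overlapping groups. Like site 3 rose by 0.00346 points and its groups did not overlap (0.0158 to 0.0201% in edited, 0.0135 to 0.0157% in wild-type libraries). Sites 2, 4 and 6 rose by 0.000196 to 0.00159 points, and site 1 changed by -0.00115 points.

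C10T at the like sites was lower than at Carm1 in both groups. The 7 like sites with cytosine there averaged 0.0287% ± 0.0117 in edited and 0.0218% ± 0.00174 in wild-type libraries (n = 4 each). Carm1 exceeded them by 0.157 ± 0.0672 percentage points in edited libraries and by 0.0492 ± 0.0156 in wild type. This shift missed the threshold (exact permutation p = 0.0571, adjusted p = 0.0667; without edited replicate 4, exact p = 0.0286). In edited replicate 4 the like sites gave 0.0461%, their highest value, while Carm1 gave its lowest edited value. C18T at the like sites averaged 0.00868% (edited) and 0.00854% (wild type), and the excess of Carm1 missed the threshold (exact permutation p and adjusted p both 0.143; without edited replicate 4, exact p = 0.0286).

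**Figure D4:**
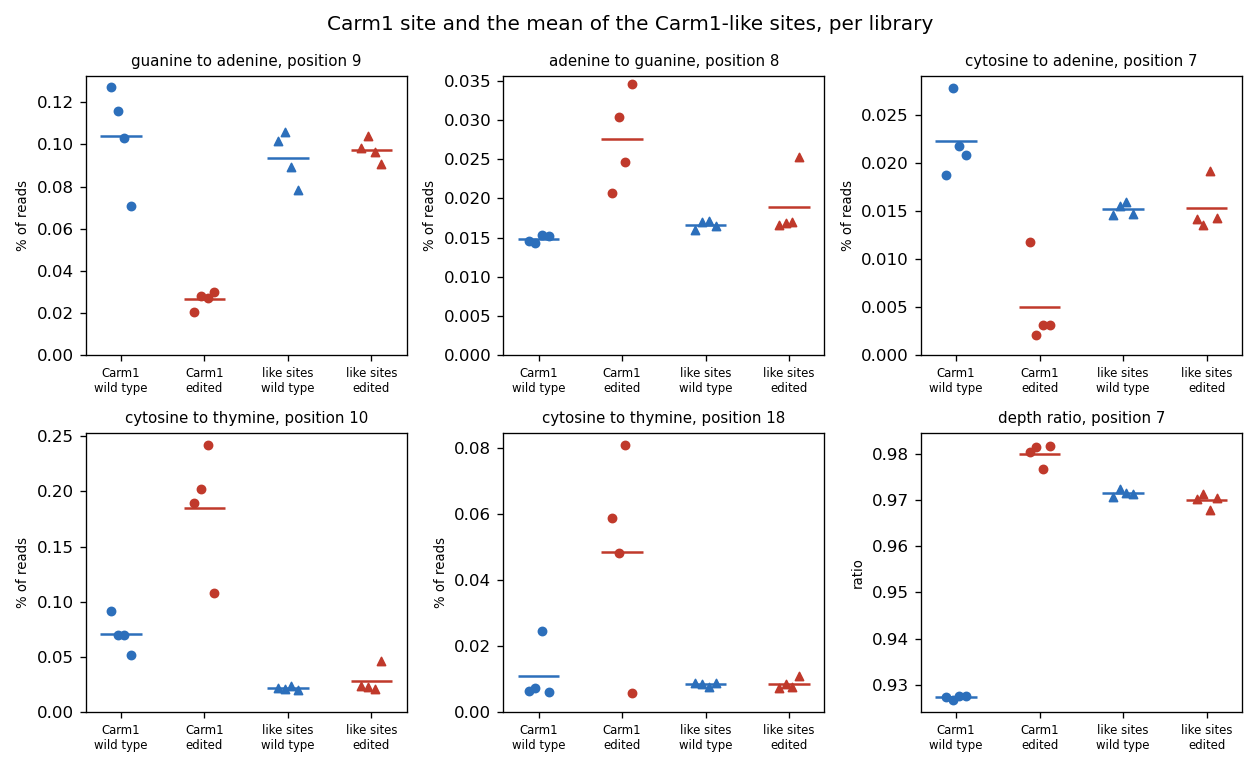
Values at the Carm1 site (circles) and the mean of the Carm1-like sites with the same base (triangles) in 4 wild-type (blue) and 4 edited (red) libraries, replicates 1 to 4 from left to right, in percent of reads or, in the last panel, as a depth ratio whose axis does not start at 0; bars are means. For guanine to adenine at position 9, edited Carm1 libraries sit at 0.0208 to 0.0303%, below their like-site means of 0.0908 to 0.104%, while wild-type Carm1 libraries sit at 0.0708 to 0.127% and their like-site means at 0.0782 to 0.106%.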

How the data were processed

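The members, lists and tests were chosen with earlier results of these data known. PCR products of genomic DNA were sequenced, per the labels' protocols. Bowtie 0.12.2 and the builds mm8 and mm10 are listed, without roles, in the submitters' processing notes; methods for trimming, base quality filters and reads with insertions or deletions: not given in the sources used here. In the deposited files, the table gives a read count per position, which the authors left as whole reads, and the percent of those reads with each base, as deposited by the authors. The 4 percents summed to 100 within 1e-06, and each gave whole reads within 0.01. Library names were matched to the labels by initials and number.

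Single values were compared by exact two-sided permutation tests over the 70 splits of 8 libraries, with Benjamini-Hochberg adjustment. With 1 library left out, 35 splits remained. The shift between Carm1 and the like sites was added after seeing the data. Calls came from limma 3.58.1, run in R 4.3.3, on log2 odds (0.5 reads added to each count), computed from the deposited counts over 210 cytosines or 1560 base changes, at an adjusted p under 0.05 and a minimum depth of 100 reads; the script was tested on simulated data. Named changes were C-to-T at each cytosine, all changes at positions 6 and 7 and at guanines, called changes, and the 5 largest differences elsewhere; others are named where groups did not overlap, after their values were seen. No 2 replicates of a group held identical counts (chi-square per degree of freedom of 1.69 or more at this site). Same-numbered libraries of the 2 groups did not deviate together (correlations over 1560 changes of -0.319 to 0.156), so numbers were not taken as pairs. Other tools were Python 3.11.15, scipy 1.17.1, pandas 2.3.3, numpy 2.4.6 and matplotlib 3.10.9.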

Additional observations from a re-analysis of the deposited data

Results flagged for a closer look

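Of 72 groups of 4 libraries checked, 5 held a library far from the other 3, where chance gives about 1 in 20. Wild-type replicate 3 had 0.0245% C18T against 0.00607 to 0.00725% in the other 3 wild-type libraries, and for the same reason its difference from the like sites was 0.0168 percentage points against -0.00274 to -0.00140. Edited replicate 1 had 0.0118% C7A, or 34 reads, against 0.00214 to 0.00315% in the other edited libraries. Wild-type replicate 1 had 0.0173% C19T against 0.0122 to 0.0130%. Wild-type replicate 2 had the lowest depth ratio at position 8 relative to the like sites, -0.0454 against -0.0407 to -0.0399.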

How the results depend on the processing

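Conversion at positions 6 and 7 kept its direction and its call with each library left out, on the log2 odds scale and in each limma setting run, and the depth difference kept them with each library left out and on the log2 scale. With the replicate block, a sign-flip test whose smallest p is 0.125, no single value can pass; differences were then 99.8 for C6T, C7T and their mean, 0.0260 for the other cytosines, -0.0261 for the guanines, 0.0283 for depth, and for Carm1 minus the like sites -0.0813 (G9A), 0.0104 (A8G), -0.0173 (C7A), 0.0541 (depth at position 7) and 0.0400 (position 8). C-to-T at the other cytosines did not pass on the log2 scale (0.60, exact p = 0.114) or without positions 10 and 18 (0.00106 points, exact p = 0.314), while non-reference bases outside the target passed on the log2 scale (0.13, exact p = 0.0286). With 1 library left out, differences ran from 0.0207 to 0.0329 for the other cytosines, -0.0298 to -0.0234 for guanines, -0.00556 to -0.00309 for adenine and guanine at the target, 0.00497 to 0.00790 for bases outside it, and against the like sites from 0.0862 to 0.139 (C10T), 0.0260 to 0.0521 (C18T), 0.00878 to 0.0119 (A8G) and -0.0199 to -0.0154 (C7A). With 1 library left out, calls among the site's base changes were 3 to 5 and among its cytosines 2 to 4; with the replicate block they were 2 and 3. Over all sites the block lowered calls from 21 to 14 cytosines and from 14 to 9 base changes, and a quasi-binomial model called 9 and 11; leaving out 1 library gave 12 to 21 and 13 to 25. The causes were not tested. Shares near 0.001% rest on few reads.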

Other observations

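The replicate numbers of the libraries with the most and the least incomplete signal at the target pair coincided between groups, as seen after the values were known. Edited replicate 3 kept the most cytosine at position 6, 0.480%, and wild-type replicate 3 had the most thymine there, 0.0497%. Edited replicate 4 kept the least cytosine, 0.0245%, and wild-type replicate 4 had the least thymine, 0.00767%. Replicates 1 and 2 stood in opposite order in the 2 groups, with 0.114% and 0.157% cytosine in edited and 0.0252% and 0.0153% thymine in wild-type libraries. With 4 libraries per group this was not tested.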
